A study of Mus musculus with 3 samples.

Results

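The genes described here are all small nuclear RNA (snRNA) and small nucleolar RNA (snoRNA) genes that the mm10 RefSeq gene table places on chromosomes 1 to 19 and X. They numbered 2343 of the 49550 genes in that table, with 1003 of them classed as snRNA and 1340 as snoRNA. Histone H3 acetylated at lysine 27 (H3K27ac), a mark found at active promoters and enhancers, was mapped by chromatin immunoprecipitation and sequencing. The cells were double negative thymocytes, immature T cells without CD4 and CD8, sorted as CD25+CD44-/+ from wild-type C57BL/6J mice aged 5-7 weeks. The series holds 2 H3K27ac replicates and 1 input of these cells, and all 3 share the same genotype, with no treatment or mutant allele. Chromatin was captured with an antibody to histone H3 before the H3K27ac antibody was applied. Whether the replicates came from separate or pooled mice is not given in the sources used here, so the spread between them may be technical. The input was not analysed here.

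A gene was called acetylated when its body with 1 kb on either side overlapped a peak of each replicate by at least 1 bp. With 1 condition and peak lists alone, no test between groups of samples could be made. Counts are therefore given as descriptions beside the share of other genes called by the same rule. The lists held 12228 peaks over 9.83 Mb in replicate 1 and 9429 peaks over 6.81 Mb in replicate 2, with median widths of 618 and 562 bp. Read depth is unknown. Genes of the T lineage supported the label only in part, since 5 of 14 double-negative T markers had an acetylated gene end (Cd3d, Cd3e, Cd3g, Tcf7 and Dntt). Of the 22 markers of B, myeloid, erythroid and thymic stromal cells, 0 had one.

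Small nuclear RNAs form the cores of the particles that splice pre-mRNA, and a few of them have other duties, such as U7 in histone mRNA processing and 7SK in holding back the elongation factor P-TEFb. They are transcribed from promoters of their own, most by RNA polymerase II, and U6 and 7SK by RNA polymerase III. Small nucleolar RNAs guide the chemical modification of ribosomal RNA, C/D box RNAs directing ribose methylation and H/ACA box RNAs directing pseudouridylation. In mammals most snoRNAs are cut from introns of host genes and have no promoter of their own. Many hosts encode ribosomal proteins or translation factors, or are noncoding genes such as Gas5 whose spliced RNA is unstable, and many begin transcription at a run of pyrimidines, the terminal oligopyrimidine tract.

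The start regions of 5 hosts, each with 2 or more acetylated members, are shown because most acetylated hosted members lay near such starts. Each line gives 100 bases before the annotated start and 20 bases from it, read along the host's strand, from RefSeq on GRCm38.p6. Capitals mark the longest unbroken run of C and T that touches the 20 bases on either side of the start. The lines are Gas5 at its second annotated start (chr1:161035066-161035185, plus strand), Rpl7a (chr2:26910707-26910826, plus), Snhg3 (chr4:132353667-132353786, minus), Rpl13a (chr7:45128726-45128845, minus) and Rps12 (chr10:23787190-23787309, minus).
Gas5: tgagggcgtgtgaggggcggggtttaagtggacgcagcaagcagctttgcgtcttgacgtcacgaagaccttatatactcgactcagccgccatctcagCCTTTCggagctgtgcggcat
Rpl7a: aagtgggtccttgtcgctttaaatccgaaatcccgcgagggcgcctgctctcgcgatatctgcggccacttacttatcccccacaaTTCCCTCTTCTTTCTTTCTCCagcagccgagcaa
Snhg3: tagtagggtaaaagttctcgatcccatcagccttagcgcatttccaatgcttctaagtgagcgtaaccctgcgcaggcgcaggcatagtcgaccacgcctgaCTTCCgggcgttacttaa
Rpl13a: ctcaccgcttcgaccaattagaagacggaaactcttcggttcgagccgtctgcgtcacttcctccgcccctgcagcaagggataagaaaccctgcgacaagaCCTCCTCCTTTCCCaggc
Rps12: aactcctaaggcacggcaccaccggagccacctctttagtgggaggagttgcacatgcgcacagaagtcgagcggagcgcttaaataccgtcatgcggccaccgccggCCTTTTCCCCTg
The run was 21 bases long at Rpl7a, 14 at Rpl13a and 11 at Rps12, all ribosomal protein genes. At the noncoding hosts Gas5 and Snhg3 it was 6 and 5 bases long. Of the other hosts with 2 or more acetylated members and an acetylated start, the noncoding Gm35239 had runs of 10 and 4 bases at its starts. The coding gene Tex14 had one of 5, so run length did not separate coding from noncoding hosts in this small set.

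Most small RNA genes carried no peak in these thymocytes. No peak of either replicate lay within 1 kb of 2168 of the 2343 members (92.5%). Peaks of both replicates were found at 79 members (3.37%), while 11.9% of all genes in the table were called by the same rule. Replicate 1 alone had a peak at 123 members (5.25%, against 19.3% of all genes) and replicate 2 at 131 (5.59%, against 16.2%), so 96 members had a peak in 1 replicate only. Gene length enters this rule, because a longer body meets more peaks. Protein-coding genes reached 22.2% and lncRNA genes 6.04%. Among genes of similar size, 4.07% of microRNA genes, 7.84% of tRNA genes and 4.43% of all other genes of at most 400 bp were called. Pseudogenes, of any length, reached 0.589%. The 79 members lay at 66 separate loci, since neighbouring snoRNAs of 1 host can share a peak. Chromosome 11 had 13 of 137 members acetylated (9.49%), chromosome 12 had 8 of 106 (7.55%) and chromosome 10 had 7 of 109 (6.42%). Chromosome 7, with the most members, had 13 of 320 (4.06%). Chromosomes 14, 19 and X held 0 of 93, 0 of 48 and 0 of 126.

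A member was counted as hosted when it lay in the body of a protein-coding or lncRNA gene, or within 1 kb of one. The table gives no strand, so a host can be antisense to its member. Acetylation was found at 47 of 847 coding-hosted members (5.55%), 21 of 429 lncRNA-hosted members (4.9%) and 11 of 1067 free-standing members (1.03%). The split differed between the RNA classes. Among snoRNA genes, 34 of 471 coding-hosted, 17 of 346 lncRNA-hosted and 0 of 523 free-standing genes were acetylated. A free-standing snoRNA gene had a peak in replicate 1 alone once and in replicate 2 alone 4 times. Among snRNA genes, 13 of 376 coding-hosted, 4 of 83 lncRNA-hosted and 11 of 544 free-standing genes were acetylated. The 32 members outside a coding gene but within 1 kb of one were called at 9 of 32 (28.1%), and the 815 inside one at 38 (4.66%).

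Members with a name of their own stood above numbered gene models, whose symbols begin with LOC or Gm. Of 159 named members 33 were acetylated (20.8%), and of 2184 models 46 (2.11%). Named genes included 94 Snord genes of the C/D class with 15 acetylated, 39 Snora genes of the H/ACA class with 9 acetylated and 15 Rnu genes with 8 acetylated. A few others, such as Rn7sk, fall outside these groups. The models are a mixed set. All 5 snoRNAs of Gas5 are among them, and so are 1059 free-standing genes.

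**Figure D1:**
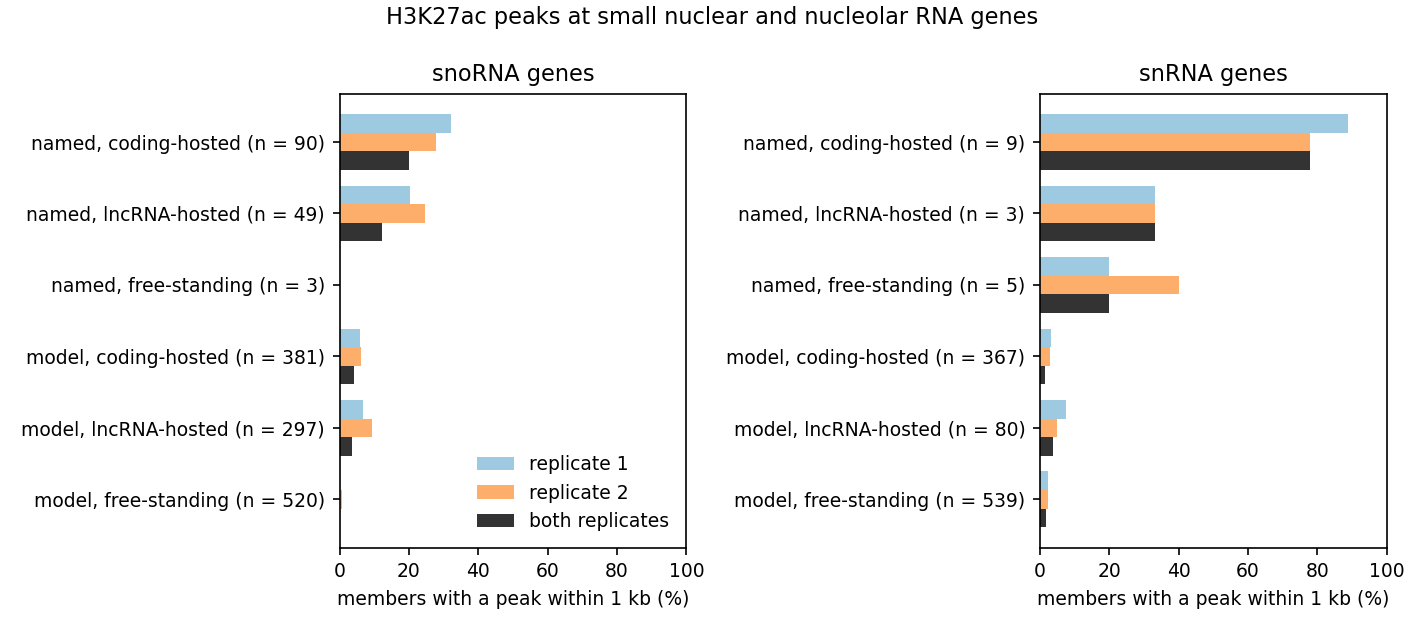
Share of snoRNA genes (left) and snRNA genes (right) with an H3K27ac peak within 1 kb, in percent, in replicate 1, replicate 2 and both, for named genes and numbered gene models by host class (n on the axis). Named coding-hosted snoRNA genes were called at 18 of 90 in both replicates, and the bars for free-standing snoRNA genes are at or near 0.

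Acetylated snoRNA genes mostly lay close to a host start that had peaks nearby. Of the 43 acetylated snoRNA genes inside a host with an annotated start, 37 had a peak of each replicate within 1 kb of that start. Of the 43, 21 lay 0 to 1 kb and 15 lay 1 to 2 kb from a start. There the member's window overlaps the window of the start, so the count of 37 is fixed in part by the rule. The start base itself lay under peaks of both replicates for 17 of the 43, and under a peak of at least 1 replicate for 32. A body was counted as under peaks when a peak of each replicate overlapped it by at least 1 bp. Of the 34 acetylated coding-hosted snoRNA genes, 6 lay with their own body under peaks of both replicates, and of the 17 lncRNA-hosted ones 8 did. Acetylated hosted members lay a median of 996 bp downstream of the nearest annotated host start, and those not acetylated 29400 bp. Where the host start was itself acetylated, 24 of 24 members at 0 to 1 kb from it were called, 15 of 32 at 1 to 2 kb, 1 of 54 at 2 to 5 kb and 0 of 75 at 5 to 25 kb. The shares at 0 to 1 kb and at 1 to 2 kb are fixed in part by the rule, because such a member's window overlaps the window of the start. The members' bodies give the sharper picture, with 11 of 24 under peaks of both replicates at 0 to 1 kb and 0 of 32 at 1 to 2 kb. Where the host start was not acetylated, 0 of 23, 0 of 31, 0 of 46 and 0 of 156 members were called in the same bins. The counts of 0 of 23 and 0 of 31 are likewise fixed in part by the overlap of windows.

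Beyond 25 kb, 4 of 62 members were called in hosts with an acetylated start, all of them U3 genes inside Tex14, and 6 of 465 in the other hosts, all in Snhg14. Hosted microRNA genes, taken over all their hosts, were called at 15 of 57 in the first bin, 3 of 23 in the second and 2 of 101 in the third. Members taken over all their hosts in the same way were called at 24 of 47, 15 of 63 and 1 of 100.

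**Figure D2:**
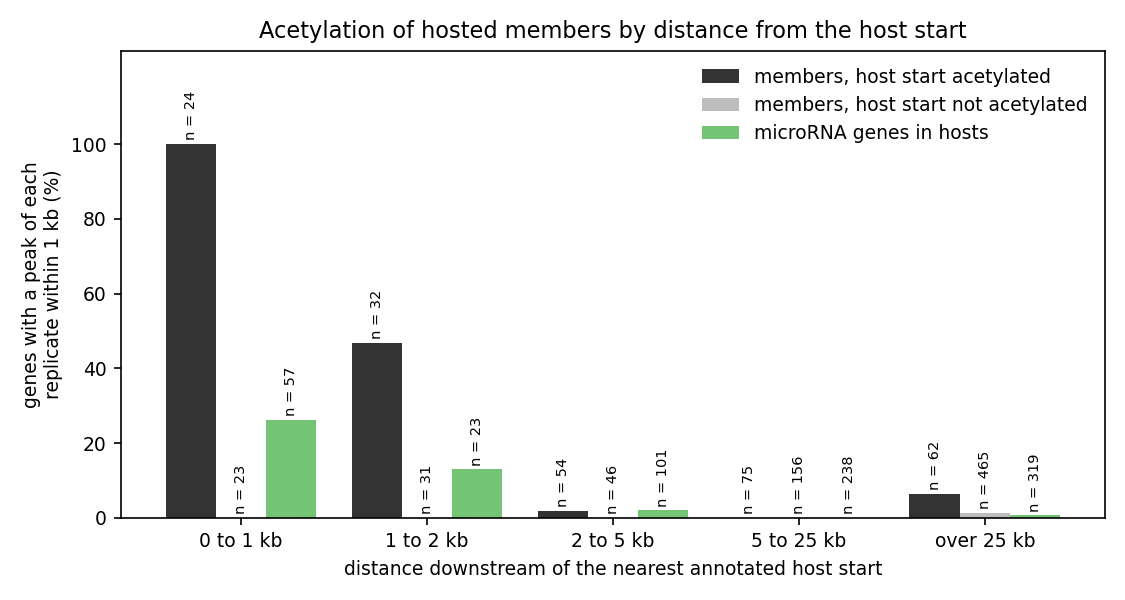
Share of hosted genes with an H3K27ac peak of each replicate within 1 kb, in percent, against distance downstream of the nearest annotated host start, for members whose host start was acetylated, members whose host start was not, and microRNA genes in hosts (n above each bar). The share of members in hosts with an acetylated start falls from 100% at 0 to 1 kb to 46.9% at 1 to 2 kb and 1.85% at 2 to 5 kb. Up to 2 kb the shares of members are fixed in part by the rule, because the member's window overlaps that of the start. The microRNA genes are not split by their host start.

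Most coding hosts of named small RNAs were themselves acetylated at their starts. A peak of each replicate lay within 1 kb of a start in 42 of 56 coding hosts of a named member (75.0%), where 18.3% of all protein-coding genes with an annotated start were called. Among coding genes with a single annotated start the shares were 41 of 54 hosts and 16.8% of all such genes. Ribosomal protein hosts reached 17 of 20 (85.0%), and the 38 other coding hosts of a named member 27 (71.1%). Ribosomal protein genes without a member reached 29 of 45 (64.4%). Coding hosts of numbered models alone reached 113 of 479 (23.6%). Among lncRNA hosts, 6 of 19 with a named member were called (31.6%) and 8 of 113 with models alone (7.08%), where 4.99% of all lncRNA genes with an annotated start were. The host lists here were drawn up from textbook knowledge with earlier results of these data known.

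Not every host with an acetylated start held an acetylated member. Of the 48 hosts of a named member with an acetylated start, 21 held an acetylated member and 27 did not. Those that did had a median length of 3.18 kb, those that did not 11.3 kb. Among coding hosts of a named member, 42 had an acetylated start. The stretch under peaks of both replicates near that start ended a median of 448 bp past it. At Tex14 the stretch ended before the start. Coding hosts of a named member had a median length of 6.79 kb and coding hosts of models alone 82.4 kb, with 17.3 kb for all protein-coding genes.

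Ribosomal protein hosts gave the clearest examples. Of the listed ribosomal protein hosts with an annotated start, 14 of 16 were acetylated there, and 13 of the 26 listed ribosomal hosts held an acetylated member. At Rps12, whose product is part of the small ribosomal subunit, all 3 members were called from peaks with folds of 2.48 in replicate 1 and 2.87 in replicate 2. The shared stretch there ended 780 bp past the start. LOC115487513, 703 bp from the start, had 770 bp of its window under peaks of both replicates. Snord100, at 1422 bp, had 393 bp, and Snora33, at 1810 bp, had 23 bp. The covered length thus became smaller with each step into the gene. That order follows from the rule, because the 3 windows step away from the edge of the same peaks.

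The same order, again from shared peaks, was seen at Rpl13a, which holds 4 C/D snoRNAs. Its peaks had folds of 2.11 and 2.19 and the shared stretch reached 1253 bp from the start. Snord32a, at 1322 bp, had 972 bp of its window covered in both replicates, Snord33, at 1841 bp, 454 bp, and Snord34, at 2110 bp, 177 bp. The fourth, Snord35a, had a peak in replicate 2 only, over 486 bp. At Rpl7a, 2 of 4 members were called, with 375 bp at 490 bp from the start and 151 bp at 1447 bp, and folds of 1.71 and 2.32.

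In Rpl17, all 3 members were called, with peak folds of 1.85 and 3.93. Neither end of Rpl17 had a peak of either replicate within 1 kb, so these peaks lay inside the gene. At Rpl13, Snord68 lay 731 bp from the start, under a peak of fold 5.64 in replicate 1 and 2.5 in replicate 2. At Rpl3, Snord43 was called although the replicates' peaks shared 0 bp of its window, the only such case among the 79.

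Hosts on the lists of translation factors, and of ribosome biogenesis and other functions, had many acetylated starts and few called members. Their members were called about as often as all coding-hosted members (5.55%) and coding-hosted snoRNA genes (7.22%). Of the listed translation-factor hosts 7 of 9 had an acetylated start, yet 1 of their 18 members was called. That member was Snord2 in Eif4a2, which encodes an RNA helicase of translation initiation. Snord2 lay 1518 bp from the start, with folds of 2.92 and 2.65 and 297 bp covered in both replicates. The list of ribosome biogenesis and other hosts also takes in genes such as Hspa8, Tcp1 and Ap1g1, a chaperone, a chaperonin subunit and a vesicle adaptor subunit. It had 12 of 18 starts acetylated and 3 of 47 members called. Nop56, which encodes a core protein of C/D snoRNA particles, hosts 5 members and had Snord110 called, at 1132 bp from the start, with folds of 2.24 and 4.55. Nop58, which encodes its partner, had an acetylated start and 0 of 4 members called. Taf1d, a subunit of the RNA polymerase I factor SL1, likewise had an acetylated start and 0 of 6.

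Noncoding hosts were split. Of the 17 listed lncRNA hosts with an annotated start, 7 were acetylated there, and 8 of the 19 listed lncRNA hosts held an acetylated member. At Gas5, 3 of 5 snoRNAs were called, from shared peaks with folds of 2.0 and 2.7. From the second start, printed above, LOC115487643 lay 267 bp away with 1016 bp covered in both replicates, LOC115487678 714 bp away with 707 bp and LOC115487638 932 bp away with 500 bp. At Snhg3 both H/ACA members were called, Snora73a with 588 bp and Snora73b with 439 bp, under peaks of fold 2.92 and 2.19. Snora24 in Snhg8 had 1175 bp, and LOC115487884 in Snhg15 had folds of 3.08 and 2.73. Zfas1 had 1 of 3 members called. Snhg1, with 8 members, and Snhg12, with 4, had 0 called and no start acetylated in both replicates.

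The imprinted noncoding arrays, whose snoRNAs are best known from brain, differed from these short hosts. Rian on chromosome 12 had no peak in either replicate over its 57.77 kb, and 0 of its 11 members were called. Snhg14 on chromosome 7, the host of the Snord115 and Snord116 repeats, spans 1177 kb and holds 207 members. Peaks were found at 15 of these in replicate 1 and at 19 in replicate 2, and at 6 in both. That share is below the 4.9% of all lncRNA-hosted members and the 3.37% of all members. Its start was not acetylated. The 6 were Gm26332, Gm24618, Gm22046, Gm25350, Gm25210 and Snord116l8, and they lay 570672 to 711283 bp from the start. Snord116l8 had folds of 2.15 and 2.76. Over the whole gene, 13 peaks covered 12649 bp in replicate 1 and 21 peaks 21197 bp in replicate 2, but 2878 bp were under peaks of both. Snrpn, which shares this locus, had 278 bp under 1 peak in replicate 1 and none in replicate 2. The snoRNA copies are near-identical repeats, and how reads matching several copies were handled is not given in the sources used here. Its part in these calls was not tested.

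Where free-standing genes and genes known to have promoters of their own were acetylated, most lay at least in part under the peak themselves. Of the 11 acetylated free-standing members, all snRNA genes, 10 had at least 1 bp of their body under a peak of each replicate. The least covered of the 10 was Gm23971, with 49 of its 191 bp in replicate 1. Of 21 snRNA and independently transcribed snoRNA genes on a list of such genes 18 were in the table. Of these 18, 10 were acetylated (55.6%), where 11.9% of all genes and 3.37% of all members were. The body lay at least in part under peaks of both replicates in 7 of the 10, the others being Rn7sk, Rnu3a and Rnu12. Of the 10, 8 lay in a coding gene or within 1 kb of one. Among all members, those outside a coding gene but within 1 kb of one were called at 28.1%, and those inside one at 4.66%. Rnu7 on chromosome 6, the gene of U7, lay whole under both peaks, at the coding gene Grcc10, with folds of 2.67 and 4.49 and 401 bp covered in both replicates. Rnu12, the gene of U12 of the minor spliceosome, had folds of 2.17 and 3.38. Its peaks covered 1659 and 942 bp of the window, which lies at the coding gene Poldip3. Snord13, the gene of U13, had folds of 1.87 and 2.47, at the coding gene Tti2. For these neighbours of coding genes, a peak of the small RNA gene and a peak of the coding gene cannot be told apart.

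Rn7sk, the gene of 7SK on chromosome 9, had folds of 1.26 and 1.32 with -log10 q of 6.60 and 11.5. Its peaks covered 624 and 519 bp of the window and 0 bp of the gene body. The lncRNA gene C920006O11Rik lies within 1 kb, so a peak of Rn7sk and a peak of that gene cannot be told apart. Peaks of chromosome 9 had median folds of 1.44 and 1.25 against 2.18 and 2.31 over all chromosomes, and 88.3% and 99.2% of them had q of at most 0.05. The fold of Rn7sk is therefore near that of its chromosome's other peaks. How the caller arrived at different values on this chromosome was not tested.

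The U3 genes, which the table classes as snRNA although U3 works in the nucleolus on ribosomal RNA precursors, were all acetylated. Rnu3a on chromosome 10 had folds of 2.03 and 2.31, at the coding gene Gtf3c6, with the peaks beside its body. Rnu3b1, Rnu3b3, Rnu3b4 and Rnu3b2 lie in that order on chromosome 11, inside Tex14. Their folds in replicate 1 were 3.40, 5.88, 2.93 and 2.85, and in replicate 2 were 2.72, 2.38, 2.44 and 2.15. Replicate 1 was thus higher at each of them, while over all 79 members the fold was higher in replicate 2 at 56. Each gene had a separate narrow peak, which covered 551, 529, 480 and 492 bp of its window in both replicates. In replicate 1 the peaks overlapped 124, 142, 124 and 132 bp of the gene bodies, each of which is 215 or 218 bp long. Within the Tex14 body near them, Rnu1a1 had a peak in replicate 1 only (fold 2.06, 723 bp) and the models Gm22068 and Gm23137 had none.

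U2-length genes formed a like row on chromosome 11. Rnu2-10, a gene of U2, and 4 models of 191 bp lie within 53.6 kb, and 3 of the 5 were acetylated. Rnu2-10 had folds of 5.07 and 2.27 with 481 bp covered in both replicates (peak chr11:101657847-101658354 in replicate 1). Gm23971 had folds of 3.47 and 2.88, and its lower fold of 2.88 was the highest lower fold of all 79 members. Gm24950 had 1.86 and 2.19. Gm26316 and LOC115487916, of the same length, had no peak. Another model of 191 bp on this chromosome, Gm23444, stood alone with folds of 2.05 and 5.92, the highest in replicate 2. Of all snRNA genes of 180 to under 200 bp, 5 of 36 were acetylated (13.9%).

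Of the snRNA genes of 150 to under 170 bp, the length class of the named U1 genes, 8 of 118 were acetylated (6.78%), Rnu12 among them. On chromosome 12, 7 models of 164 bp lie within 41.8 kb, and 5 of them were acetylated. Gm22513 at Eapp had folds of 2.18 and 2.53, Gm22634 1.97 and 2.23, Gm25679 2.05 and 2.38, LOC115488077 2.34 and 2.56, and Gm22317 2.46 and 2.18. Each had its own peak, and the other 2 had a peak in 1 replicate, LOC115488065 in replicate 2 and Gm26444 in replicate 1. The named U1 genes on chromosome 3 differed. Rnu1b1, Rnu1b2 and Rnu1b6 had no peak in either replicate. The models Gm25890 and Gm22614, at the far end of the same 160.0 kb row, lay together under 1 peak in each replicate (folds 2.03 and 2.25, chr3:96486318-96490090 in replicate 1).

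**Figure D3:**
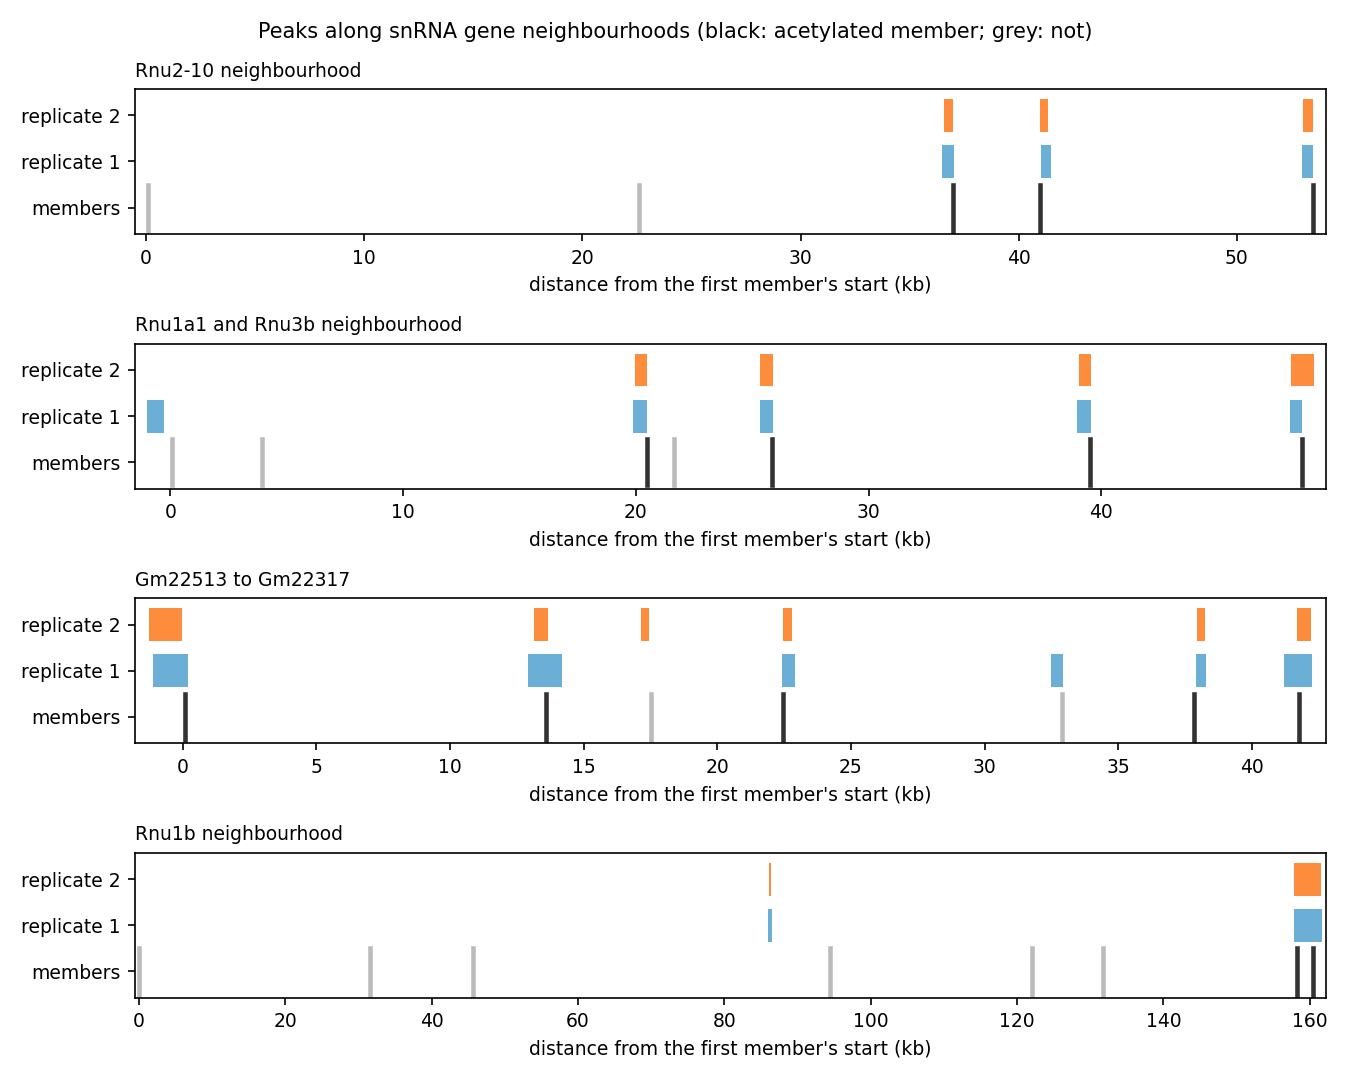
Positions of snRNA members (black where acetylated, grey where not) and of the peaks of replicate 1 (blue) and replicate 2 (orange) along 4 neighbourhoods of snRNA genes, in kb from the start of the first member. In the upper 3 rows each acetylated member sits beside or inside a separate peak in both replicates, and in the Rnu1b row 1 broad peak covers both acetylated models.

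Over the whole table, 10 neighbourhoods held at least 3 snRNA members with gaps of at most 50 kb. They contained 47 members, 15 of them acetylated, where 2.79% of all snRNA genes were. At least 1 acetylated member was found in 5 of the 10, and 2 or more in 4. As for Snhg14, how reads matching several copies were handled is not given, and its part in these calls was not tested. Shorter snRNA genes were seldom called. Of 693 snRNA genes of 90 to under 110 bp, the length class of Rnu6, 5 were acetylated (0.722%), among them the free-standing Gm26243 with folds of 2.17 and 3.99. Rnu6 itself and Rnu5g had no peak. Rnu11 of the minor spliceosome had a peak in replicate 2 only, with fold 2.39 over 411 bp. Snord118, the gene of U8, had none.

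A few members had broad coverage beside other genes. LOC115488100 and Gm23296, each 107 bp long and in the lncRNA gene Gm35239, had 1748 and 1445 bp covered in both replicates, from 1 shared peak of folds 2.16 and 2.04. LOC115488830 in Ddx39b, which encodes an mRNA export helicase, had 1399 bp. Gm24265 and Gm24407 in Sirt4 had 1227 and 1105 bp under 1 peak per replicate, upstream of the annotated start of Sirt4.

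The peaks at members were of ordinary height. Over the 79 members the fold ranged from 1.12 to 5.88 in replicate 1, with a median of 2.17, and from 1.1 to 5.92 in replicate 2, with a median of 2.49. The medians over all peaks were 2.18 and 2.31. Members of 1 host share peaks, so these folds come from 65 peaks in each replicate. A peak with q of at most 0.05 lay at 19 members in replicate 1 and at 43 in replicate 2. Both replicates had one at 10 members, where 2.03% of all genes were called by that stricter rule. Peaks of both replicates covered a median of 447 bp of a member's window.

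**Figure D4:**
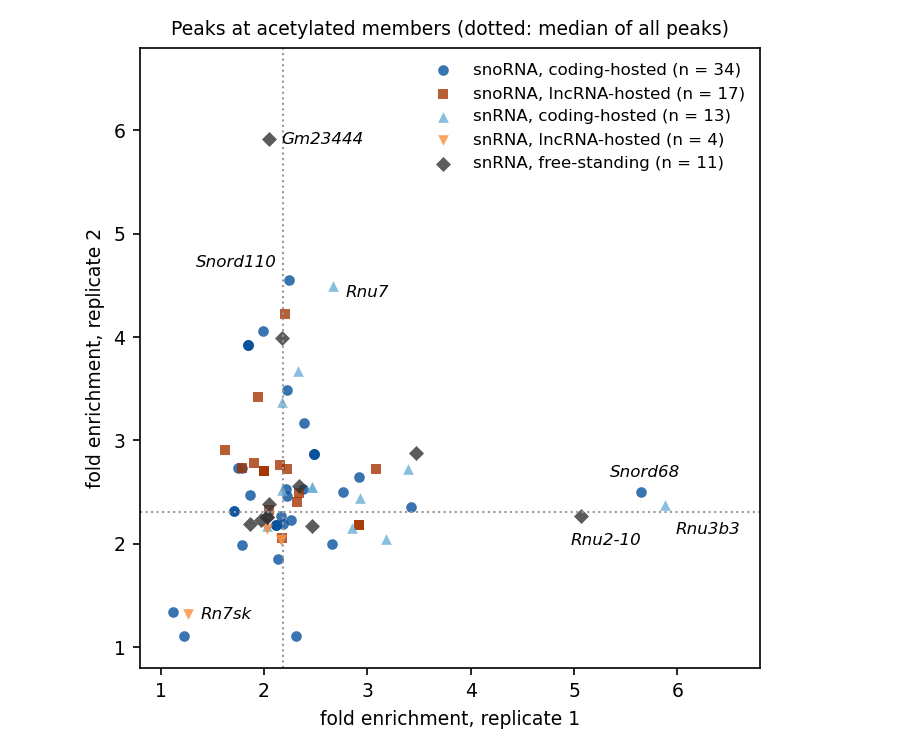
Fold enrichment of the peak at each of the 79 acetylated members in replicate 1 (horizontal) and replicate 2 (vertical), by RNA class and host class, with dotted lines at the median of all peaks (2.18 and 2.31). Most members lie near the crossing of the lines, while Rnu3b3, Snord68 and Rnu2-10 are high in replicate 1 and Gm23444 is high in replicate 2.

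Promoters of hosts were searched for short motifs on both strands, from 250 bases before to 50 after each annotated start, and no searched motif contains another. None of the 2343 members has an entry in that promoter table, so the members' own promoters were not searched. The Ets-type motif CCGGAAG was present in 14 of 49 acetylated promoters of hosts of a named member (28.6%), in 22.5% of 3805 acetylated coding promoters and in 8.92% of all 32619 promoters. TATAAA was present in 18.4%, 5.78% and 13.7% of the same sets, and TCTCGCGA in 14.3%, 3.97% and 1.0%. The E box CACGTG was found in 14.3%, 11.4% and 7.2%. The octamer ATGCAAAT was found in 0 of the 49, in 1.18% and in 1.75%. TCTCGCGA occurs in the Rpl7a sequence printed above, and CCGGAAG, on the other strand, at the start of Snhg3. A run of at least 8 pyrimidines touching the 20 bases on either side of the start was a measure chosen after the sequences were seen. It was present in 11 of the same 49 promoters (22.4%), in 18.3% of acetylated coding promoters and in 21.1% of all promoters. In the smaller set that holds the printed sequences, it was present at 10 of 24 acetylated promoters of coding hosts with an acetylated member (41.7%) and at 2 of 13 of their lncRNA counterparts (15.4%). These matches describe letters in a window and say nothing of binding.

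Genes that make, assemble and transcribe these RNAs were read from lists of 62 protein-coding genes, by peaks of each replicate within 1 kb of either gene end. Of the 62, 28 were acetylated, where 17% of all protein-coding genes were. Of 11 C/D particle genes 6 were called, among them Fbl, the methyltransferase of the particle, with folds of 2.12 and 2.39, and Snu13 with 2.41 and 1.98. Of 7 H/ACA genes 2 were called, Gar1 and Naf1, while Dkc1, the pseudouridine synthase, had no peak. Of 26 genes of snRNA transcription and 3′ end formation 14 were called. They included Snapc1, a subunit of the factor that binds snRNA promoters, with folds of 2.24 and 2.21, Zfp143, an activator of such promoters, with 2.08 and 2.39, and Pou2f1, which binds the octamer, with 1.76 and 2.42. Ints7 of the Integrator complex, which cleaves snRNA precursors, had 3.97 and 2.55. Of 18 genes of snRNA particle assembly 6 were called, including Gemin2 with folds of 2.44 and 6.44 and Mepce, which caps 7SK, with 2.45 and 2.60. Smn1 had no peak.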

How the data were processed

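H3K27ac chromatin immunoprecipitation data of 2 replicates were used, each as a list of broad peaks. Per the submitters' processing notes, reads were aligned with Bowtie2 and peaks called with MACS 1.4.2 on mm10. The 9-column layout is that of a later MACS, so the version is uncertain. Peak names in the deposited files show calling per sample after duplicate removal. Of the cutoff, the control and reads with several matches nothing was found (not given in the sources used here). Each peak's fold enrichment, a ratio, was deposited by the authors. So were its p-value and q-value, both as −log10. The deposited score repeats the −log10 q, multiplied by 10 and cut to a whole number, and was not used. These values only describe or filter peaks. The lists hold no counts, so depth is unknown and no interval can be given.

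Genes came from a RefSeq table (GRCm38.p6, the mm10 build) without strand. Hosts were assigned in the order of coding body, lncRNA body, coding gene within 1 kb and lncRNA within 1 kb. Host starts and promoter sequences came from RefSeq's promoter table. Overlaps were computed in Python 3.11.15 with pandas 2.3.3 and numpy 2.4.6, and checked on simulated peaks. No test was made. Free-standing acetylated members, listed genes with their own promoter, hosts of at least 3 members, the members with the most covered bp and those with the highest lower fold were named, with 2 to 4 examples per host list. Other named genes were chosen after their values were seen, such as Rpl13 with Snord68, Snhg3 and Snord43. One host among these is not reported here. Members, lists and named rules were chosen with earlier results of these data known. Alternatives changed the window, peak threshold, overlap, replicate rule, chromosomes, host definition, member set and unit.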

Additional observations from a re-analysis of the deposited data

How the results depend on the processing

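Counts of acetylated members moved with the window, the peak threshold, the replicate rule and the member set. The 79 members became 34 with the gene body alone, 153 with 2.5 kb on either side, 10 with q of at most 0.05, 175 with a peak in either replicate and 33 among named members alone. The 47 coding-hosted members became 13, 97, 7, 92 and 25 in the same order, and the 21 lncRNA-hosted members 11, 40, 2, 61 and 7. The 11 free-standing members became 1 with q of at most 0.05, 22 with either replicate, 21 with hosts by gene body only and 1 among named members. The 28 genes of the snRNA and snoRNA pathway became 13 with no flank and 5 with q of at most 0.05. With a replicate left out, the counts were 123 to 131 members, 67 to 72 coding-hosted, 37 to 45 lncRNA-hosted and 14 to 19 free-standing. The other alternatives moved these counts by less than 1.5 times. Peaks with q of at most 0.05 lie more often on chromosomes 6 and 9, and without chromosomes 6, 9, 14 and 17 the count was 69. No paired analysis was possible because only 1 group was studied and no test was made. Near-identical gene copies, unknown depth and 2 replicates limit these calls.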
